A study of Saccharomyces cerevisiae with 6 samples.

Results

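Sulfate assimilation and methionine synthesis were examined through 10 genes in the S. cerevisiae laboratory strain BY4741, which lacks one of them. The genes were chosen by name and not by their values, though earlier results of these data were known. They are MET3, MET14, MET16, MET5 and MET10, which turn sulfate into sulfide, MET17, which fixes sulfide into homocysteine, MET6, which makes methionine, SAM1 and SAM2, which make S-adenosylmethionine (SAM), and MUP1, a methionine permease. These 10 were among 6572 features counted in each of 3 BY4741 libraries, and 9 of the 10 had reads. BY4741 is a haploid strain of mating type a in the S288C background, with deletions of LEU2, URA3 and MET17 and of a part of HIS3. All 3 libraries came from this single strain, grown for 6 h in a medium called ILM and collected in mid-exponential phase, with no other treatment given. The series also holds 3 libraries of S. boulardii Biocodex, whose tables share 0 identifiers with those of BY4741, so the genes were not compared between the strains.

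In yeast, sulfate is taken up, activated in steps that spend ATP, and reduced to sulfide. Sulfide is joined to O-acetylhomoserine to give homocysteine, from which methionine, SAM and, by another route, cysteine are made. The transcriptional activator Met4 drives many genes of the pathway and is brought to their promoters by the DNA-binding proteins Cbf1, Met31 and Met32. When methionine or SAM is ample, the ubiquitin ligase subunit Met30 restrains Met4, and these genes are repressed. A strain without MET17 is commonly fed methionine, and the medium's methionine content is not given in the labels.

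Counted reads came to 18707708 in replicate 1 of BY4741, 5181546 in replicate 2 and 4581414 in replicate 3. LEU2 and URA3 had 0 reads in each, and HIS3 was read at 49.8 ± 12.2 reads per 1000000 counted reads (CPM; SD, n = 3). The a-factor genes MFA1 and MFA2 summed with STE2 and BAR1 to between 382 and 471 CPM, while 4 markers of alpha cells summed to between 49.2 and 63.7 CPM. MFA1 and MFA2, with means of 144 and 143 CPM, made up most of the first sum. The alpha marker SAG1, at 39.2, 45.4 and 44.5 CPM in replicates 1, 2 and 3, made up most of the second. STE2 stood at 44.7, 76.2 and 76.6 CPM. BAR1, at 34.3, 96.5 and 51.7 CPM, lay below SAG1 in replicate 1. Both other libraries predicted at least 10 reads for 5313, 5367 and 5326 genes in replicates 1, 2 and 3. Of these genes, 5, 95 and 63 had 0 reads. Separate cultures are not named in the labels. The SDs therefore measure only the spread between these libraries, which may be technical. The sign permutation p-values given below are for ratios within these libraries. Where a ratio lies on the same side of 1 in all 3, that p is 0.25 whatever the spread.

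The pathway genes with reads were low to moderate in level. Level between genes was compared as reads per kb of coding length and per 1000000 counted reads (RPKM). The median of the 10 genes was 23.1 ± 1.28 RPKM (SD, n = 3), against 45.2 ± 1.504 for the 5898 genes matched to the S288C reference R64. The 10 genes thus had a median of 0.512 ± 0.0445 times the level of the median gene. This counts MET17, which is deleted, at 0. For the 9 genes with reads the median was 25.8 ± 1.07 RPKM, or 0.571 ± 0.0373 times the median gene (SD, n = 3). None exceeded 4 times the median gene in each library, which 15.0% of all matched genes did. SAM1 and MET6 lay above the median gene in each library, where 42.6% of all genes lay. MET3, MET16, MET5, MET10, MET17, SAM2 and MUP1 lay below it in each library, where 42.5% of all genes lay, and MET14 crossed it. Of the 9 genes with reads, which leave out the deleted MET17, 6 lay below it in each library. In the order of mean level per kb, SAM1 was followed by MET6 and SAM2, and the ranges of these 3 over the libraries did not overlap. From SAM2 downward, through MET14, MUP1, MET16, MET10, MET3 and MET5, each gene's range overlapped that of the next.

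**Figure D1:**
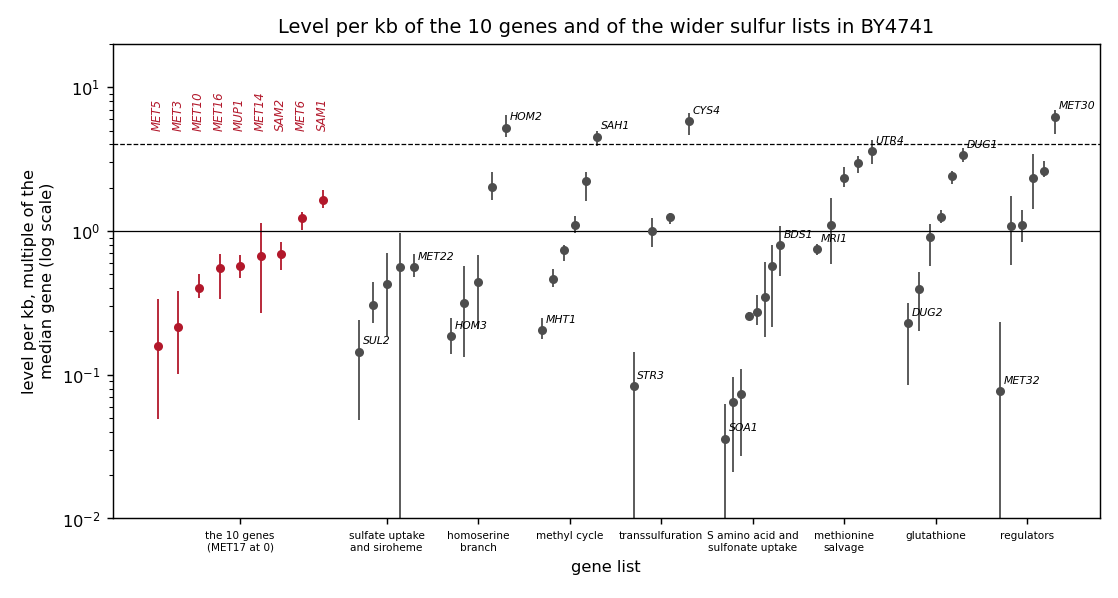
Level per kb as a multiple of the median gene (log scale) for the 9 genes with reads (red) and for 8 wider sulfur lists (grey) in BY4741; points are means and bars run from the lowest to the highest of 3 libraries (to the bottom of the plot where a library was at 0), the solid line marks the median gene and the dashed line 4 times that level. SAM1 and MET6 lie above the solid line and the other red means lie below it.

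MET17 (YLR303W), also known as MET15, encodes the O-acetylhomoserine sulfhydrylase that fixes sulfide. It had 0 reads in all 3 libraries, as 3.17% of all matched genes did. With 3 reads as the limit that a count of 0 allows, its level was at most 0.160 CPM in replicate 1, 0.579 in replicate 2 and 0.655 in replicate 3, a limit that covers counting error alone. Its neighbours in R64 were read on both sides. HRI1, to one side, had 540, 89 and 68 reads, and the aconitase gene ACO1, to the other, had 4769, 1861 and 1308. YLR302C, a listed feature that overlaps MET17 by 12 bp, had 11, 0 and 0 reads. YLL058W, which encodes a weak homocysteine synthase that can partly stand in for Met17, stood at 19.3, 43.8 and 10.7 CPM, or 0.318 ± 0.226 times the level per kb of the median gene (SD, n = 3). It was highest in replicate 2 and lowest in replicate 3, a 4.10-fold range. MET2, which makes the O-acetylhomoserine that Met17 uses, stood at 13.4, 27.6 and 46.9 CPM and was highest in replicate 3.

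The Cbf1 box stood before the start codons of some of the genes from sulfate to sulfide, and how many depended on the window. The box, spelled CACGTG on both strands, was searched in R64, the reference annotated by RefSeq. Within 300 bases before the start codon it stood in MET14, MET16, MET10 and MET17, which is 4 of the 10 genes. The share over the 5897 genes whose windows could be read was 3.61%. Of the 45 other sulfur genes described below, 10 had the box in that window. Within 500 bases, a window chosen after the data were seen, the box also stood in MET3, MET5, MET6 and SAM2. That made 8 of 10, against 6.29% of 5896 genes. The boxes of the 5 genes and of MET17 are printed below, on the coding strand from 5′ to 3′, with the box in capitals and the surrounding bases in lower case, to show where each box stands and which bases surround it.
MET3 first box, chrX:455850-455879, + strand: agaaaaaaaggtCACGTGaccagaaaagtc
MET3 second box, chrX:455867-455896, + strand: gaccagaaaagtCACGTGtaattttgtaac
MET14 box, chrXI:439596-439625, − strand: tgccactaatttCACGTGatcaatatattt
MET16 box, chrXVI:877793-877822, − strand: ttatcatcatttCACGTGgctagtaaaaga
MET5 first box, chrX:683601-683630, − strand: atataatttgtcCACGTGatatttcacaga
MET5 second box, chrX:683572-683601, − strand: aatgaatttcatCACGTGcgtattatctct
MET10 first box, chrVI:213051-213080, + strand: gatataccacacCACGTGagcttatagaag
MET10 second box, chrVI:213069-213098, + strand: agcttatagaagCACGTGaccacaattcac
MET17 box, chrXII:732230-732259, + strand: aatggcaaatggCACGTGaagctgtcgata
These coordinates are those of R64, since the build behind the counts is not given in the sources used here. In MET14, MET16 and MET10 the boxes began between 178 and 249 bases before the start codon, in MET17 at 300, in MET5 at 304 and 333, and in MET3 at 360 and 377. Each of the 11 boxes of the 10 genes had a T directly before it on one strand or the other, as 72.2% of 418 boxes before all genes did. A match describes the letters and not binding.

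The other letters searched each stood within 300 bases in 3 of the 10 genes, against 4 for the Cbf1 box, and were also rarer among all genes. The core bound by Met31 and Met32, CTGTGGC on either strand, stood within 300 bases in MET3, SAM2 and MUP1. That is 3 of 10, against 2.05% of all genes and 15 of the 45 other sulfur genes. The site of the amino acid starvation regulator Gcn4, TGACTCA on either strand, stood within 300 bases in MET16, MET5 and MUP1. That is again 3 of 10, against 2.66% of all genes and 6 of the 45 other sulfur genes. The matches of the 3 motifs did not overlap. MUP1 and SAM1 had no Cbf1 box within 500 bases, and SAM1 had no match to any of the 3 motifs.

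**Figure D2:**
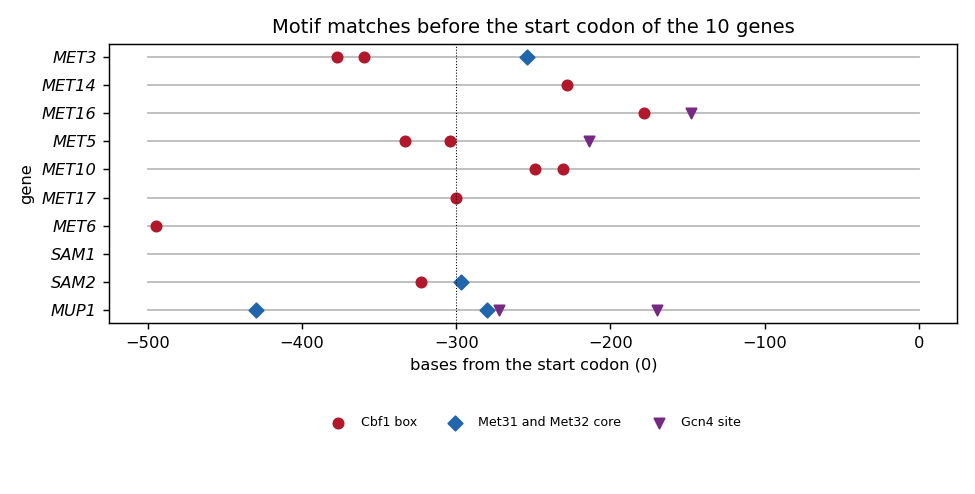
Positions of matches to 3 motifs on either strand, in bases from the start codon, for the 10 genes; the dotted line marks 300 bases. Cbf1 boxes (circles) stand in 8 genes, cores of Met31 and Met32 (diamonds) in MET3, SAM2 and MUP1, and Gcn4 sites (triangles) in MET16, MET5 and MUP1.

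MET3 (YJR010W) encodes ATP sulfurylase, which activates sulfate. It had 211, 36 and 126 reads, or 11.3, 6.95 and 27.5 CPM in replicates 1, 2 and 3. Replicate 3 was highest and replicate 2 lowest, a 3.96-fold range. Per kb it stood at 9.92 ± 7.05 RPKM (SD, n = 3), or 0.216 times the median gene, and at 5.93 RPKM without replicate 3.

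MET14 (YKL001C) encodes the kinase that acts on the product of Met3. It had 308, 160 and 35 reads, or 16.5, 30.9 and 7.64 CPM. Its order was the reverse of that of MET3, with replicate 2 highest and replicate 3 lowest, and the range was 4.04-fold. Per kb it stood at 30.1 ± 19.3 RPKM (SD, n = 3), and at 19.8 RPKM without replicate 2. The log2 ratio of MET3 over MET14, per kb, was -1.88, -3.49 and 0.51 in replicates 1, 2 and 3, so the order of these 2 consecutive steps changed between libraries (p = 0.5, exact two-sided sign permutation over 3 libraries).

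MET16 (YPR167C) encodes the reductase that forms sulfite. It had 409, 61 and 117 reads, or 21.9, 11.8 and 25.5 CPM, lowest in replicate 2 like MET3, with a 2.17-fold range. Per kb it stood at 25.1 ± 9.07 RPKM (SD, n = 3), and at 30.2 RPKM without replicate 2, above MET14. Its level relative to MET14 had no stable direction. The log2 ratio of MET14 over MET16 was -0.04, 1.76 and -1.37, with a mean of 0.12 that turned to -0.71 without replicate 2, was 0.86 without replicate 3 and was -0.25 by reads not scaled for length (p = 1, exact two-sided sign permutation).

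MET5 (YJR137C) and MET10 (YFR030W) encode the subunits of sulfite reductase, a siroheme enzyme that forms sulfide. MET5 had 320, 338 and 46 reads, or 17.1, 65.2 and 10.04 CPM. Replicate 2 stood apart from the others, and the range of 6.497-fold was the widest of the 9 genes with reads. MET10 had 941, 363 and 227 reads, or 50.3, 70.1 and 49.5 CPM, also highest in replicate 2 but within 1.41-fold. Per kb, MET5 stood at 7.11 ± 6.94 RPKM and MET10 at 18.2 ± 3.74 (SD, n = 3 each). Without replicate 2, MET5 stood at 3.14 RPKM. MET5 was below MET10 in 3 of 3 libraries. The mean log2 ratio of MET5 over MET10 was -1.80 ± 1.12 (SD, n = 3), with -0.58 in replicate 2 and -2.78 in replicate 3, and the mean was -2.41 without replicate 2. The exact two-sided sign permutation p was 0.25, the smallest that 3 libraries can give, and 0.295 after Benjamini-Hochberg adjustment over 13 pairs of genes.

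**Figure D3:**
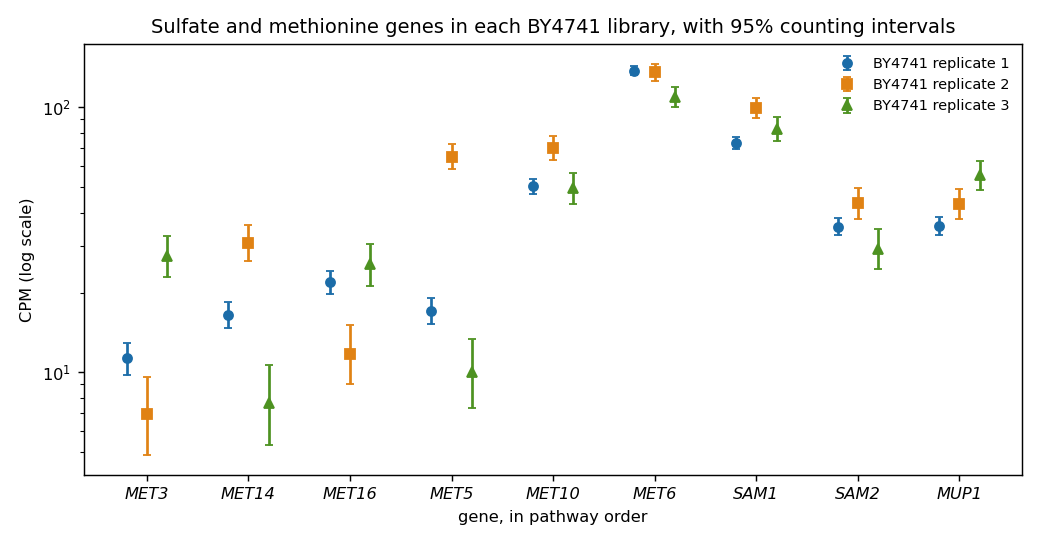
CPM (log scale) of the 9 genes with reads in BY4741 replicates 1 to 3, in pathway order; points are single libraries and bars are exact 95% Poisson intervals, which cover counting error only. Replicates 2 and 3 change places between MET3 and MET14, while MET6 and SAM1 stay close.

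MET3, MET14, MET16 and MET5 varied most between libraries, and not in 1 direction. They also had the lowest mean CPM of the 9 genes with reads, at 15.2, 18.3, 19.7 and 30.8. SAM2 was next at 36.1 CPM. Whether the wide ranges go with low counts was not tested. From replicate 3 to replicate 2, MET5 differed by 2.70 and MET14 by 2.02 on the log2 scale, both higher in replicate 2. MET3 differed by -1.98 and MET16 by -1.12, both lower in replicate 2. The 95% counting intervals of these 2 libraries, which cover counting error only, did not overlap for 7 of the 9 genes with reads, these 4 and MET10, MET6 and SAM2. That was also so for 62.1% of the 3215 matched genes in the same span of mean CPM, so it does not set the 4 apart. The span runs from 15.2 to 128 CPM, so it also holds genes of higher level than these 4. For MET5 the intervals ran from 58.5 to 72.6 CPM in replicate 2 and from 7.35 to 13.4 CPM in replicate 3. For MET3 they ran from 4.87 to 9.62 and from 22.9 to 32.7 CPM. The summed CPM of the 5 genes from sulfate to sulfide moved less, at 117, 185 and 120.3. MET10, the steadiest of the 5, made up 50.3, 70.1 and 49.5 of these sums, and MET5 made up 65.2 in replicate 2. MET3, MET14, MET16 and MET5 were the only ones of the 9 with reads whose highest library exceeded the lowest over 2-fold. That range was also met by 31.8% of the genes in that span, and by 25.5% of all genes with at least 10 CPM. A range over 3-fold was met by MET3, MET14 and MET5, and by 11.7% of the genes in that span. A range over 5-fold was met by MET5 and by 3.45%. With replicate 2 left out, 2 genes, MET3 and MET14, exceeded 2-fold, where 10.6% of all genes with at least 10 CPM did. With replicate 3 left out 1 gene, MET5, did, against 11.5% of them. Replicates 2 and 3 had 0 reads for 95 of 5367 and 63 of 5326 genes predicted at 10 or more by both other libraries. The part of that in these ranges was not tested. The biological coefficient of variation, edgeR's estimate of spread beyond counting error, was 0.901 for MET5 and 0.140 for MET6, with a median of 0.257 in that span.

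MET6 (YER091C) encodes the cobalamin-independent methionine synthase and had the highest read counts of the 10 genes. It had 2571, 704 and 501 reads, or 137, 136 and 109 CPM. Replicates 1 and 2 were close, and replicate 3 was lowest by 1.26-fold. Per kb it stood at 55.4 ± 6.85 RPKM (SD, n = 3), or 1.23 ± 0.189 times the median gene, with 1.01 times in replicate 3. It exceeded MET3 in 3 of 3 libraries, by 6.55-fold per kb (log2 2.71 ± 1.18, SD, n = 3), and by log2 3.36 without replicate 3.

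SAM1 (YLR180W) and SAM2 (YDR502C) encode the 2 SAM synthetases, which join methionine to the adenosyl part of ATP. SAM1 had 1377, 515 and 380 reads, or 73.6, 99.4 and 82.9 CPM. SAM2 had 664, 225 and 134 reads, or 35.5, 43.4 and 29.2 CPM. Both were highest in replicate 2, within ranges of 1.35-fold and 1.48-fold. Per kb, SAM1 stood at 74.3 ± 11.4 RPKM, the highest of the 10 genes, and SAM2 at 31.2 ± 6.15 (SD, n = 3 each). SAM1 exceeded SAM2 by 2.39-fold (log2 1.26 ± 0.23, SD, n = 3), in 3 of 3 libraries. The 2 genes are paralogs, but only 1.82% and 1.81% of their stretches of 50 bases occur in another gene. Few reads of that length could thus be mistaken for those of another gene. SAM1 exceeded MET6 per kb in 3 of 3 libraries (log2 of MET6 over SAM1 -0.42 ± 0.28, SD, n = 3), whereas MET6, the longer gene, had more reads (0.58 by reads alone).

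MUP1 (YGR055W) encodes the high-affinity methionine permease, through which a strain without MET17 can take up methionine. It had 668, 224 and 254 reads, or 35.7, 43.2 and 55.4 CPM, highest in replicate 3 and lowest in replicate 1, a 1.55-fold range. Per kb it stood at 26.0 ± 5.77 RPKM (SD, n = 3), or 0.572 times the median gene. It exceeded MUP3, a low-affinity methionine permease gene, in 3 of 3 libraries, by 10.5-fold per kb (log2 3.39 ± 1.17, SD, n = 3). MUP3 rested on 104, 8 and 34 reads, and without replicate 2 the log2 ratio was 2.72. MUP1 also exceeded MET3 in 3 of 3 libraries, by 3.04-fold per kb (log2 1.60 ± 0.82, SD, n = 3). These ratios of MUP1, like those of SAM1 and MET6, had the same p of 0.25 (exact sign permutation) and adjusted p of 0.295.

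Replicate 2 was the highest library for 5 of the 9 genes, against 33.9% of the genes in the same span of mean CPM, replicate 3 for 3, against 39.4%, and replicate 1 for MET6 alone, against 26.7%. The mean profile of the 9 genes over the libraries, in log2 CPM around the mean of 3 libraries, was -0.09, 0.21 and -0.11. Single genes went opposite ways, with MET5 at 1.54 and MET3 at -0.89 in replicate 2, so this mean describes no pattern that the 9 shared. The 5 genes with profiles most similar to that mean were AIM9, PAC2, DFM1, PML1 and RNA1, with root mean square differences from 0.0024 to 0.0079 on the log2 scale. Over only 3 libraries such likeness is common, and 449 of 5070 genes lay within 0.1.

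The 45 other sulfur genes, in 8 lists, had a median of 0.741 ± 0.0818 times the median gene (SD, n = 3). Of them, 3 exceeded 4 times the median gene in each library, where 15.0% of all genes did, and these were HOM2, CYS4 and MET30. Against the median of only the genes with at least 10 reads in each library, 0 did. In each library 15 lay above the median gene and 23 below it, where 42.6% and 42.5% of all genes lay. Cysteine synthesis from homocysteine was led by CYS4, the cystathionine beta-synthase gene, at 263 ± 46.6 RPKM (SD, n = 3). CYS3, of the following step, stood at 56.8 ± 3.58 RPKM. STR2 and STR3 act in the opposite route, from cysteine to homocysteine. CYS4 exceeded STR2 by 5.83-fold (log2 2.54 ± 0.40, SD, n = 3; p = 0.25, exact), and STR3 had 167, 0 and 32 reads.

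Sulfate uptake and siroheme genes lay below the median gene in each library, 5 of 5, against 42.5% of all matched genes. SUL1, a sulfate permease gene, exceeded its paralog SUL2 by 2.42-fold (log2 1.27 ± 0.90, SD, n = 3; p = 0.25, exact), and SUL2, lowest of this list, ranged over 4.95-fold. MET8, of siroheme synthesis, had the highest mean of the list, 25.3 ± 22.3 RPKM, close to the 25.2 ± 4.98 of MET22, the phosphatase gene whose product removes a by-product of sulfate reduction (SD, n = 3 each). MET8 had 655, 0 and 126 reads and so was one of the genes at 0 in replicate 2. In the homoserine branch HOM2, aspartate semialdehyde dehydrogenase, was highest at 236 ± 41.3 RPKM and HOM3, aspartate kinase, lowest at 8.41 ± 2.36 (SD, n = 3 each).

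SAH1, which clears S-adenosylhomocysteine after methyl transfer, led the methyl cycle at 204.5 ± 18.7 RPKM, and MHT1, S-methylmethionine homocysteine methyltransferase, was lowest at 9.22 ± 2.10 (SD, n = 3 each). Genes of methionine salvage had the highest list median, 2.32 ± 0.422 times the median gene (SD, n = 3), from the isomerase gene MRI1 at 33.7 ± 4.16 RPKM to UTR4, of the enolase-phosphatase step, at 163 ± 35.1. Genes that take up sulfur amino acids or use sulfonates had the lowest, 0.225 ± 0.0117. Of these 8 genes, 7 lay below the median gene in each library, against 42.5% of all genes. They ran from SOA1, a sulfonate transporter gene with 0, 17 and 22 reads, to BDS1, an alkyl sulfatase gene, at 35.9 ± 12.6 RPKM. Glutathione genes ran from DUG2 at 10.2 ± 5.44 RPKM to DUG1 at 153 ± 18.6, both of glutathione breakdown.

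Among the regulators, MET30, which restrains Met4, was highest at 283 ± 63.1 RPKM (SD, n = 3), or 6.24 ± 1.31 times the median gene. MET4 stood at 119 ± 15.7 and CBF1 at 107 ± 49.8 RPKM (SD, n = 3 each). CBF1 varied over 2.54-fold, highest in replicate 3 and lowest in replicate 2, the order seen for MET3 and MET16. MET14, MET5, MET10 and SAM2 ran the other way, highest in replicate 2 and lowest in replicate 3. Of the genes in the CPM span of the 9, 39.4% were highest in replicate 3. The share with the full order of CBF1 was not counted. MET31 had 466, 174 and 97 reads, while its paralog MET32, the lowest regulator, had 110, 0 and 0 reads, so no ratio was taken over all libraries.

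The 10 genes encode proteins with few sulfur-containing residues. Methionine and cysteine codons made up a median of 1.76% of their codons in R64, against 3.38% for all matched genes. All 10 lay under the median of all genes. At most 2% was reached by 6 of the 10, MET3, MET16, MET5, MET10, MET17 and MET6, and by 12.7% of all genes. MET10 has 5 methionine and 2 cysteine codons among 1035, the same 0.676% as MET17, with 2 and 1 among 444. SAM1 and SAM2 were highest at 3.14% and 3.12%. The 45 other sulfur genes had a median of 3.36%, and 23 of them lay under the median of all genes.

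**Figure D4:**
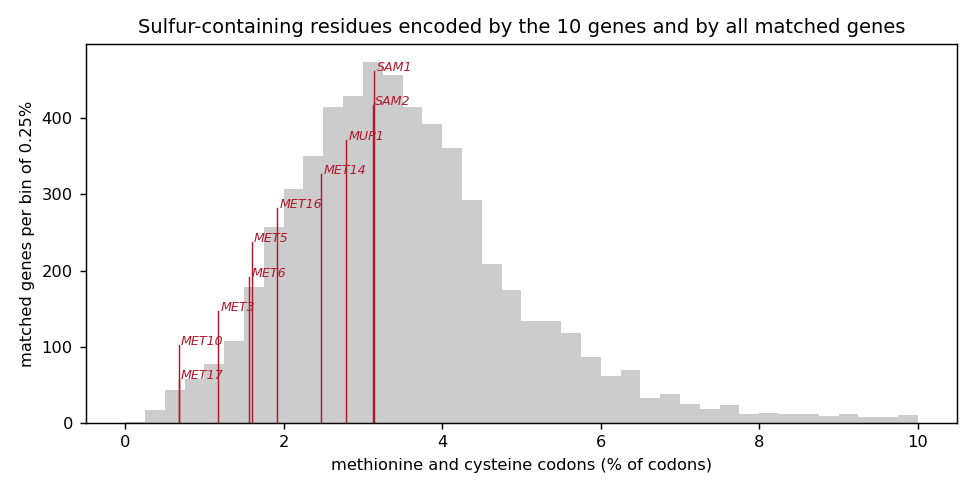
Methionine and cysteine codons as a percentage of all codons: grey bars count the 5898 matched genes in bins of 0.25%, and red lines mark the 10 genes, whose heights only separate the labels; 47 genes over 10% lie beyond the axis. The 10 lines run from 0.676% to 3.14%.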

How the data were processed

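RNA was isolated with the Ambion RiboPure-Yeast kit and the NuGEN Universal Plus mRNA-Seq kit gave the libraries, per the labels' protocols. The authors deposited, library by library, raw counts of reads on each feature. FastQC, TopHat, HTSeq and DESeq2 were used, per the submitters' processing notes, and the build, the annotation and the use of strand are not stated, so reads of antisense or overlapping features may not be told apart. Only the 3 BY4741 tables gave values. Of their 6572 identifiers, 5898 matched coding genes of R64, the source of symbols, coding lengths, codons and promoter letters.

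Counts were divided by library totals (CPM) and by coding length (RPKM), with SDs over 3 libraries. Ratios of 15 gene pairs were planned, and 2 pairs with a library at 0 reads were left out. Ratios were tested by exact sign permutation with Benjamini-Hochberg adjustment. The genes and lists were chosen with earlier results of these data known. Named genes were the 10 genes, the pairs, the highest and lowest of each list, and the 5 most similar profiles. Others, among them YLL058W, MET2, MET8, MET4, CBF1 and the neighbours of MET17, were named after their values were seen. The level and spread steps were tested on simulated data, where spread estimates from 3 libraries came out low. Left-out libraries, normalization, thinning, length, filters and motif windows were varied. The work ran in Python 3.11.15 (pandas 2.3.3, SciPy 1.17.1, matplotlib 3.10.9, numpy 2.4.6) and, for scaling and spread, in R 4.3.3 with DESeq2 1.42.0 and edgeR 4.0.16.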

Additional observations from a re-analysis of the deposited data

How the results depend on the processing

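No paired analysis was possible because the genes were measured in BY4741 alone. TMM and DESeq2 size factors left each level of the genes and each count of wide ranges on its side, and were not applied to ratios within a library, which they cannot move. Thinning to the smallest library left levels, counts and ratios on their side. By CPM in place of the level per kb, the median of the 10 genes was 33.5 CPM, 0.563 times the median gene, and that of the wider lists 0.633 times. Against only genes with at least 10 reads in each library, these were 0.425 and 0.615, the genes above the median were 1 in place of 2, and the wider genes over 4 times the median were 0 in place of 3. Without near-identical genes in the background, 1 gene lay above the median, MET6 being lost in replicate 3. Leaving out 1 library gave 1 to 4 genes over 2-fold and 10.6% to 17.9% of all genes, in part because 2 libraries span less than 3. The log2 ratio of MET14 over MET16 ran from -0.71 to 0.86 with 1 library left out and was -0.25 by reads. That of MET6 over SAM1 was 0.58 by reads, which follows from their lengths. Windows of 500 bases, chosen after the data were seen, gave a Cbf1 box in 8 of the 10 genes, 17 of the 45 others and 6.29% of all genes, and raised the share of all genes with the Met31 and Met32 core to 3.82% and with the Gcn4 site to 4.07%. Low counts, such as 35 reads of MET14 in replicate 3, limit single values.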

Other observations

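Isoenzyme genes linked to sulfur economy, PDC6, ALD6 and ENO1, exceeded 4 times the median gene in each library, as 15.0% of all genes did. Their counterparts PDC1, ALD4 and ENO2 did so too. The median of the counterparts was higher, at 77.9 against 25.2 times the median gene. PDC6, a pyruvate decarboxylase gene known to be induced in sulfur-limited medium, stood at 888, 383 and 840 CPM in replicates 1, 2 and 3, or 9.18 ± 3.61 times the level per kb of the median gene (SD, n = 3). It stood below PDC1, the main isoenzyme gene, in 3 of 3 libraries, by 21.4-fold (log2 of PDC6 over PDC1 -4.42 ± 0.73, SD, n = 3; p = 0.25, exact sign permutation). ENO1 exceeded its paralog ENO2 by 1.96-fold (log2 0.97 ± 0.06, SD, n = 3), although 23.6% of the 50-base stretches of each occur in another gene, so their reads could be shared. ALD6 stood below ALD4 in 3 of 3 libraries, with a log2 ratio of -0.37 ± 0.32 (SD, n = 3). Methionine and cysteine codons made up 1.07% in PDC6 against 3.02% in PDC1, and 1.60% in ENO1 against 2.52% in ENO2, while ALD6, at 3.60%, held more than ALD4, at 2.50%. Within 500 bases before their start codons, PDC6 and ENO1 each had a core of Met31 and Met32, at 459 and 188 bases, and 3.82% of all genes had one. PDC6 and ALD6 were lowest in replicate 2, as MET3 and MET16 were, while ENO1 was highest there. The share of all genes lowest in replicate 2 was not counted.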
